A study of Rattus norvegicus with 12 samples.

Results

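Integrins are cell surface receptors made of an alpha and a beta chain, and laminins are extracellular proteins made of an alpha, a beta and a gamma chain. Their genes were described here in cultured rat neural stem cells (NSCs), dividing cells from which neurons and glia can be derived. The members were all probe sets of the array whose platform annotation gave exactly 1 gene symbol and whose symbol was that of an integrin alpha chain (Itga followed by letters or digits), an integrin beta chain (Itgb and a digit) or a laminin chain (Lama, Lamb or Lamc and a digit). This rule found 48 probe sets for 32 genes, of 14217 genes with 1 symbol on the array: 15 integrin alpha, 7 integrin beta and 10 laminin genes. The rule used no measured value. RNA was hybridised to 12 Affymetrix Rat230_2 arrays, whose probe sets read the end of a messenger RNA near its poly(A) tail. Sprague Dawley rats at postnatal days 3 to 5 gave the cells, from brain or from spinal cord, with no genetic change or agent named in the labels. Each tissue gave 3 arrays of proliferative cultures and 3 of differentiated cultures, the latter marked in the sample titles by "fenhua", Chinese for differentiation. The sources used here do not give the differentiation procedure. Whether the 3 arrays of a group stand for different cultures or rats is also not stated, so each p-value reflects the spread of these arrays alone, which may be technical.

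Integrins connect the matrix outside a cell to actin inside it, through adaptor proteins such as talin and kindlin that bind the beta tail. The alpha chain largely sets the ligand: alpha 3, 6 and 7 bind laminins, alpha 1 binds collagen, alpha 5, 8 and V bind proteins with an Arg-Gly-Asp motif, and the alpha L, M, D and X chains pair with beta 2 on leukocytes. Laminin trimers assemble into basement membranes with type IV collagen, nidogen and perlecan, and neural progenitors touch such membranes at the surfaces of the developing nervous system and around vessels.

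Each array's median log2 signal lay between 6.88 and 7.23, and testing was limited to probe sets brighter than an array's own 40th percentile on 3 or more of the 12 arrays. That percentile lay between 5.91 and 6.41. A gene is called dim in a group where all 3 arrays were at or below that percentile. For a dim group a fold is given as "at least", from the mean of its percentiles, because MAS5 values that low have no reliable order. Of 9 measured stem and progenitor markers, Sox2, Vim, Fabp7, Nes, Pax6, Notch1 and Prom1 were above the percentile in every group, while Hmga2 was dim in both differentiated groups and Hes5 in 3 of the 4 groups. Markers of other cells were present in spinal cord cultures: the summed signal of 15 genes of fibroblasts, meninges and mural cells was 1309 to 2826 on brain proliferative, 2598 to 2963 on brain differentiated, 24887 to 44113 on spinal cord proliferative and 103267 to 119037 on spinal cord differentiated arrays. That of 17 genes of leukocytes and microglia was 1178 to 1600, 2706 to 3087, 10043 to 15875 and 7794 to 8345 in the same order. Spinal cord proliferative array 1 lay farthest from its group's median for 54.9% of all tested genes and for 9 of 23 tested members. It had the highest leukocyte sum of its group and the lowest fibroblast sum. The glial makeup moved too: in brain differentiation 9 of 10 astrocyte and 10 of 11 oligodendrocyte lineage markers rose, while in spinal cord 5 and 1 rose and 4 and 5 fell. Of 7 Schwann cell markers 6 fell and 1 rose in spinal cord differentiation. Over all tested genes 24.1% rose in brain differentiation, and 20.9% rose and 22.6% fell in spinal cord differentiation.

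Of the 32 genes, 23 passed the filter: 10 of 15 alpha chains, 5 of 7 beta chains and 8 of 10 laminin chains. Itga3, Itga6, Itga7, Itgae, Itgav, Itgb1, Itgb4, Itgb5, Lama4, Lama5, Lamb2, Lamc1 and Lamc3 were above the percentile on all 12 arrays. Dim in all 4 groups were 7 genes: Itga11, a collagen receptor chain of fibroblasts, Itgad and Itgam of leukocytes, Itgb6 of epithelia, Itgb7 of lymphocytes, and Lama3 and Lamb3, chains of the epithelial laminin of skin. Itga9 and Itgax exceeded the percentile on 2 arrays each and were not tested. Where a gene had several probe sets, the one that was brightest on average represents it, and others are given where they differ. No level of a gene is set against that of another, since probes differ in brightness.

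The 23 tested genes were compared in 5 contrasts of a linear model (limma, Benjamini-Hochberg over all 20834 probe sets tested, threshold 0.05), beside the same counts over 11218 tested genes. In brain differentiation 6 members rose and 7 fell, where 24.1% of all tested genes rose and 28.5% fell (52.5% in all). In spinal cord differentiation 7 members rose and 5 fell, against 20.9% and 22.6% of all tested genes (43.5% in all). Between proliferative cultures, 10 members were higher in spinal cord and 7 in brain, against 21.2% and 22.8% of tested genes (43.9% in all). Between differentiated cultures the counts were 8 and 5, against 22.3% and 22.4% of tested genes (44.7% in all), and the 5 became 3 without brain differentiated array 3 or without spinal cord differentiated array 1. The responses of both tissues differed for 8 members, 5 with the larger value in spinal cord and 3 in brain, against 23.7% and 21.2% (44.9% in all), and the 5 became 3 without brain differentiated array 1. Between proliferative cultures 17 of 23 members were called in either direction beside the 43.9% of all genes, and no test of the members as a set was made. Of the calls between tissues, 3 in proliferative and 2 in differentiated cultures involved genes dim in brain that passed the filter through spinal cord arrays. Proliferative groups serve in both a differentiation and a tissue contrast, so those contrasts are not independent.

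Counts by class follow for differentiation, where 24.1% of all tested genes rose and 28.5% fell in brain, and 20.9% and 22.6% in spinal cord. Among tested alpha chains 5 of 10 fell in each tissue, and 1 rose in brain and 0 in spinal cord, with median log2 changes of -0.60 and -0.52 (all tested genes: -0.06 and -0.04). At an unadjusted p under 0.05, limma gave 1 rising alpha chain in spinal cord, Itgal (log2 change 0.79, adjusted p = 0.0838). Among 5 beta chains, Itgb2, Itgb4 and Itgb5 rose in both tissues and Itgb1 was called down in brain, with a median of 0.87 in brain and 0.78 in spinal cord. Of 8 laminin chains 2 rose and 1 fell in brain, with a median of -0.35, and 4 rose in spinal cord, with a median of 1.06. The difference between classes was not tested, because members of a class are not replicates. The plot of responses shows each gene in both tissues.

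**Figure D1:**
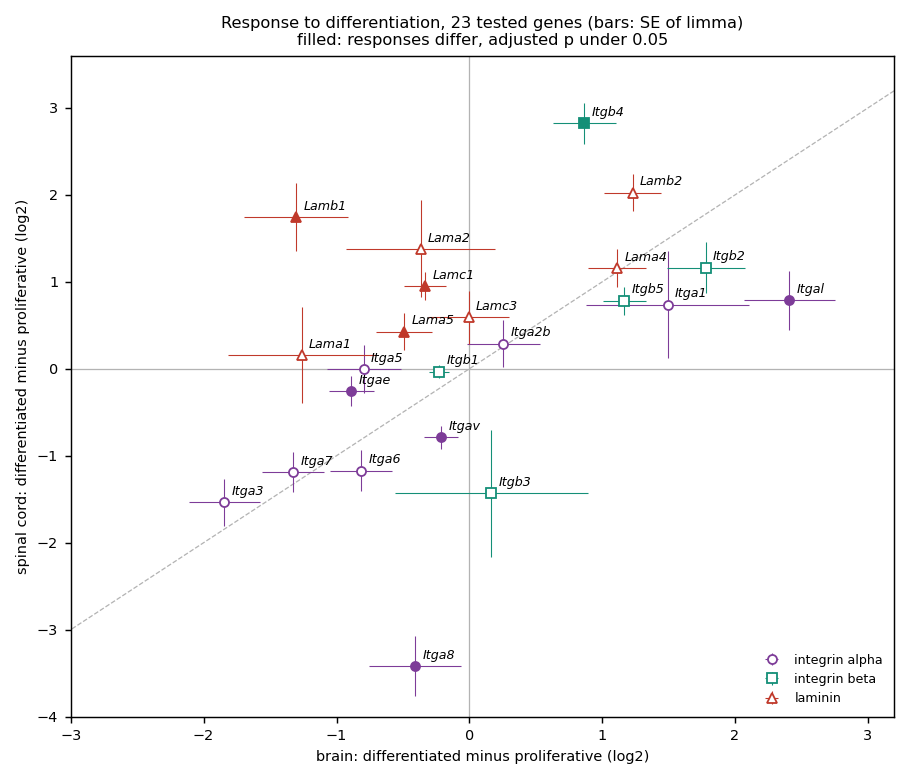
Log2 change with differentiation in brain (horizontal axis) and spinal cord (vertical axis) for the 23 tested genes, with the SE of limma as bars, circles for alpha chains, squares for beta chains and triangles for laminins. Filled symbols mark the 8 genes whose responses differed, with Lamb1 at -1.30 in brain and 1.74 in spinal cord and Itga8 at -0.41 and -3.42, away from the dashed line of equal response.

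Lama2, Lama4, Lamb1 and Lamc1 were higher in spinal cord than in brain cultures in both states. For Lamc1 the call between proliferative cultures was lost in some alternatives, given below. The 250 bases before the start sites of these chains are printed because the chains shared that tissue difference. They did not share a response in brain, where Lama4 rose and Lamb1 fell. The sequences are from RefSeq (GRCr8), in which 24 of the 32 genes matched a promoter by symbol. They run 5' to 3' toward the start. Capitals mark matches on either strand to the GC box GGGCGG, the CCAAT box CCAAT or the TATA box TATAAA. The AP-1 element TGANTCA was searched too.
Lama2, GRCr8 chr1:19491896-19492145, plus strand: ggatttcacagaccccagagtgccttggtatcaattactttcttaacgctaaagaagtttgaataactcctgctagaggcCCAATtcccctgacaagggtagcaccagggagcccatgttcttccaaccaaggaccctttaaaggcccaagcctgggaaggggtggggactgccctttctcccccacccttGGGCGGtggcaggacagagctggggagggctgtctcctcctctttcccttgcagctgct
Lama4, GRCr8 chr20:43946648-43946897, plus strand: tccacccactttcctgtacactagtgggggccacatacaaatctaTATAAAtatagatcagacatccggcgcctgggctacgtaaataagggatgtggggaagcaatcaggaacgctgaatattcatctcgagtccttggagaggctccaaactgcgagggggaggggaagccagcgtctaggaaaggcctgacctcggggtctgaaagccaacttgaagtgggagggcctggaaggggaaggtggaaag
Lamb1, GRCr8 chr6:53562846-53563095, plus strand: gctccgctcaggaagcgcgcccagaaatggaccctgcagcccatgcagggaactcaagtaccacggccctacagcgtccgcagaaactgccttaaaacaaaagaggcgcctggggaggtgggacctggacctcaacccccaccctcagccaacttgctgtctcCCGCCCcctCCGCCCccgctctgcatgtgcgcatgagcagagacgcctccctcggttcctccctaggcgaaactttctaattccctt
Lamc1, GRCr8 chr13:68051987-68052236, minus strand: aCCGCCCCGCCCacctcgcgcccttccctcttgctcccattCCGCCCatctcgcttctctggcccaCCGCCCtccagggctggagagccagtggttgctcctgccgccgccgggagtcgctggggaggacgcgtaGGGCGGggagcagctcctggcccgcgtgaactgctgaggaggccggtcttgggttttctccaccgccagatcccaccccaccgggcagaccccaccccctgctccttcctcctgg
The window of Lamc1 held 5 matches to the GC box, the first 2 of them sharing 1 base, that of Lamb1 held 2 and that of Lama2 held 1. Among 33469 promoter windows of the same length, 30.5% held at least 1 GC box. Lama2 also held a CCAAT box, found in 34.0% of windows, and Lama4 held a TATA box, found in 12.9%. TGANTCA was not among these letters, and 6.34% of all windows held it. The G and C content was 71.2% for Lamc1, 62.0% for Lamb1, 55.6% for Lama2 and 53.2% for Lama4, against a median of 51.2%. A match is a description of the sequence and not evidence of binding.

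The laminin alpha chains divided the tissues. Lama2, the chain of muscle and peripheral nerve laminin that is lost in merosin-deficient muscular dystrophy, was dim in both brain groups. Its log2 signals were 2.77, 2.48 and 3.68 on brain proliferative and 2.42, 3.63 and 1.79 on brain differentiated arrays. On spinal cord arrays they were 7.30, 9.23 and 8.83 in proliferative and 10.13, 9.63 and 9.75 in differentiated cultures. Every spinal cord array lay above every brain array, and the gene passed the filter through its 6 spinal cord arrays alone. The fitted log2 differences were 5.48 in proliferative (adjusted p = 5.51e-06) and 7.22 in differentiated cultures (adjusted p = 2.26e-07), but they use the dim brain values. Set against the percentiles, the gene was at least 5.09-fold higher in proliferative and at least 11.6-fold higher in differentiated spinal cord cultures. The p-values do not test these lower bounds. Within spinal cord the 2 states did not overlap, with a log2 change of 1.38 ± 0.56 (SE) that was not called (adjusted p = 0.0649). It was called with a pseudocount of 64 (1.20, adjusted p = 0.00371) and with only the 2 groups compared (adjusted p = 0.0328). Leaving out brain differentiated array 2 or 3 or spinal cord proliferative array 2 also gave a call (adjusted p = 0.0424, 0.0494 and 0.0445). The other alternatives did not call it. In these bulk samples, fewer cells of a type and less RNA per cell cannot be told apart.

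Lama4, a chain of vessel and mesenchymal basement membranes, was 6.87, 8.07 and 7.57 on brain proliferative arrays and 8.69, 8.50 and 8.65 on brain differentiated ones. In spinal cord it was 10.41, 10.61 and 10.78 before and 11.81, 11.78 and 11.69 after differentiation. The 4 groups did not overlap and stood in the order brain proliferative, brain differentiated, spinal cord proliferative, spinal cord differentiated. It rose 2.16-fold in brain and 2.23-fold in spinal cord (adjusted p = 0.000949 and 0.000868), and the difference of these responses was 0.05 on the log2 scale with a 95% interval of -0.62 to 0.72. The tissue difference was 8.57-fold in proliferative and 8.84-fold in differentiated cultures (adjusted p = 1.86e-07 and 8.86e-08).

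Lama5, the most widely used alpha chain of adult basement membranes, was higher in brain. It was 9.84, 9.57 and 10.53 on brain proliferative, 9.36, 9.48 and 9.62 on brain differentiated, 7.56, 8.05 and 7.58 on spinal cord proliferative and 8.06, 8.19 and 8.22 on spinal cord differentiated arrays. No brain array fell to the level of a spinal cord array. The difference was 4.75-fold between proliferative cultures (adjusted p = 2.47e-06) and 2.51-fold between differentiated ones (adjusted p = 0.000184). Neither response to differentiation was called (log2 change -0.49 in brain, adjusted p = 0.0715, and 0.43 in spinal cord, adjusted p = 0.127). Their difference was called at 0.92 ± 0.30 (SE, adjusted p = 0.0246), a call lost without brain differentiated array 1 or spinal cord proliferative array 3 (range of the leave-out values 0.64 to 1.12, highest adjusted p = 0.057). Lama1, the alpha chain of early embryonic basement membranes, was dim in both brain groups, at 5.35 to 5.67 and 2.97 to 5.68, and was 6.24 to 6.70 and 6.39 to 7.06 in spinal cord, above the percentile on 5 arrays. It was at least 1.27-fold higher in differentiated spinal cord cultures. The fitted log2 difference was 2.37 (adjusted p = 0.00342), and it was 3.08 without brain differentiated array 2 and 1.72 without array 3.

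The beta chains Lamb1 and Lamb2 both rose in spinal cord but went apart in brain. Lamb1, which pairs with gamma 1 in most embryonic laminins, was 7.86, 7.10 and 6.96 on brain proliferative and 6.78, 5.51 and 5.72 on brain differentiated arrays. In spinal cord it was 9.48, 11.20 and 10.46 before and 12.21, 12.15 and 12.01 after differentiation. It thus fell 2.47-fold in brain (adjusted p = 0.0146) and rose 3.35-fold in spinal cord (adjusted p = 0.00301), without overlap in either tissue. The responses differed by 3.05 ± 0.56 on the log2 scale (SE, adjusted p = 0.000671). Spinal cord cultures exceeded brain cultures 8.42-fold in the proliferative state (adjusted p = 4.14e-05) and 69.6-fold in the differentiated state (adjusted p = 3.9e-08). Only 1 of the 3 brain differentiated arrays was above its percentile, so the size of the fold in that state, and of the fall in brain, is uncertain. The fall in brain was not called without brain proliferative array 1, brain differentiated array 2 or brain differentiated array 3 (log2 change -1.69 to -1.03 over all leave-outs, highest adjusted p = 0.0698), nor with a pseudocount of 64 (-0.78, adjusted p = 0.0502).

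Lamb2, the beta chain of mature basement membranes at synapses and in kidney, rose in both tissues. It went from 8.88, 8.56 and 9.50 to 10.13, 10.26 and 10.24 in brain, a 2.35-fold rise (adjusted p = 0.000382). In spinal cord it went from 8.12, 8.82 and 8.19 to 10.49, 10.41 and 10.32, a 4.08-fold rise (adjusted p = 6.93e-06). The difference of these responses, 0.80 ± 0.31 (SE), was not called (adjusted p = 0.0516). It was called under median centring (1.03, adjusted p = 0.0276), quantile normalization (0.87, adjusted p = 0.0365), a pseudocount of 64 (0.71, adjusted p = 0.044) and the stricter filter (adjusted p = 0.0456). Leaving out brain proliferative array 2 or spinal cord proliferative array 2 also gave a call (1.01 and 1.02, adjusted p = 0.014 and 0.0108). The other alternatives did not call it. Differentiated cultures of both tissues differed by 0.20 on the log2 scale, with a 95% interval of -0.27 to 0.66. Between proliferative cultures it was 1.52-fold higher in brain (adjusted p = 0.0417), but the arrays overlapped and only the leave-outs of brain proliferative array 2 and spinal cord proliferative array 2 kept the call. The leave-out values ran from -0.82 to -0.34 with adjusted p up to 0.183, the value nearest 0 being that without brain proliferative array 3. The call was also lost with no filter, no mean-variance trend, a replicate block or only the 2 groups compared (adjusted p = 0.0518, 0.0746, 0.0596 and 0.138).

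Among gamma chains, Lamc1, the common partner of nearly all laminins outside skin, was 10.71, 11.14 and 11.35 on brain proliferative and 10.77, 10.60 and 10.82 on brain differentiated arrays. It was 11.44, 11.91 and 11.35 on spinal cord proliferative and 12.51, 12.56 and 12.47 on spinal cord differentiated arrays. It rose 1.93-fold in spinal cord (adjusted p = 0.000337), while in brain the log2 change of -0.33 was not called (adjusted p = 0.105) but that of its second probe set was (-0.49, adjusted p = 0.00698). The responses differed by 1.28 ± 0.23 (SE, adjusted p = 0.000506), and by 1.33 in the second probe set. Differentiated spinal cord cultures were 3.44-fold higher than differentiated brain cultures (adjusted p = 9.3e-07). The 1.41-fold difference between proliferative cultures (adjusted p = 0.0244) was not called without brain proliferative array 1 or spinal cord proliferative array 2, where the log2 values were 0.32 and 0.33 (adjusted p = 0.119 in both). It was also not called under median centring (0.29, adjusted p = 0.222), with no mean-variance trend (adjusted p = 0.0562) or with only the 2 groups compared (adjusted p = 0.0871), while its second probe set was called (0.46, adjusted p = 0.0125). Lamc3, another gamma chain, was 6.60 to 7.38, 6.83 to 7.22, 6.47 to 6.67 and 6.50 to 7.74 in the 4 groups, and no contrast of it was called.

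**Figure D2:**
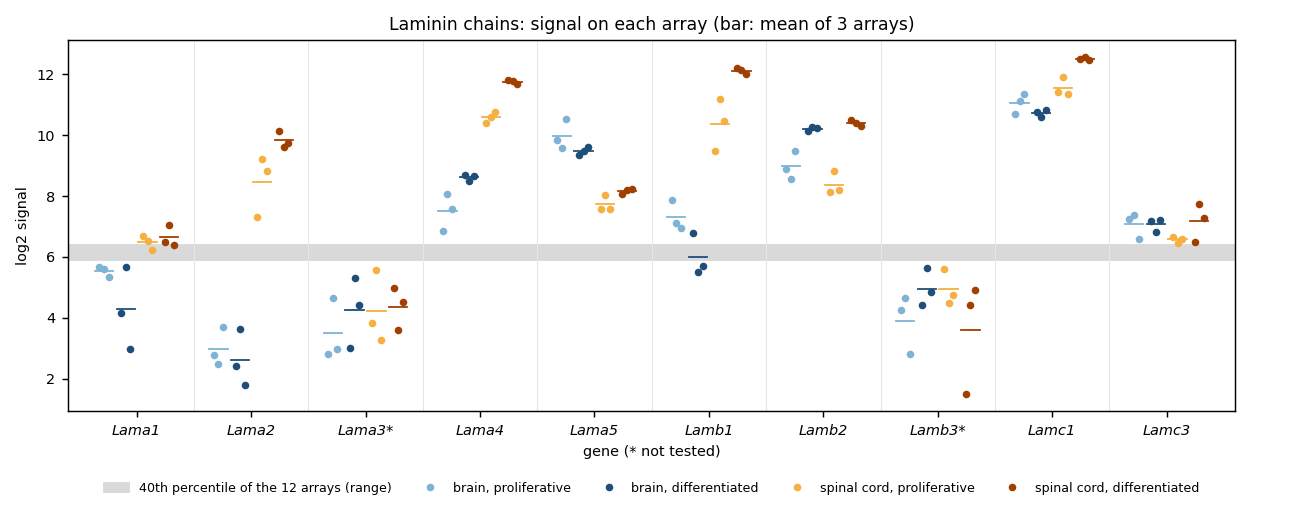
Log2 signal of the 10 laminin chains on each of the 12 arrays, coloured by group, with the mean of 3 arrays as a bar and the range of the arrays' 40th percentiles in grey. Lama2, Lama4, Lamb1 and Lamc1 are highest on the 3 spinal cord differentiated arrays, while Lama5 is higher on all brain arrays.

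The basement membrane partners of laminins were described from a list of 26 genes, of which 18 were tested. Between proliferative cultures 15 were higher in spinal cord and 2 in brain, with a median log2 difference of 1.65 (all tested genes: 21.2% and 22.8%, median -0.04). Between differentiated cultures these counts were 13 and 3, with a median of 2.63 (all tested genes: 22.3% and 22.4%, median -0.0038). Tinagl1, a matrix protein related to tubulointerstitial nephritis antigen, was at least 2.17-fold higher in proliferative spinal cord cultures. This is a lower bound, since Tinagl1 was dim in brain, and not the largest difference of the list. Col15a1, a collagen chain, was at 8.001 to 10.35 on spinal cord proliferative arrays, against at most 6.804 on brain proliferative ones. Nid2, a nidogen, was at 10.48 to 11.218 against 7.856 to 8.385 on the same arrays. Fbln1, the matrix protein fibulin 1, was 18.4-fold higher in differentiated spinal cord cultures. In spinal cord differentiation 10 rose and 2 fell (all tested genes: 20.9% and 22.6%), with Fbln1 9.56-fold and Col4a5, a type IV collagen chain, 3.86-fold higher, while Smoc1, a calcium-binding matrix protein, fell 7.22-fold. In brain differentiation 8 rose and 3 fell (all tested genes: 24.1% and 28.5%), with Col4a5 4.60-fold and Smoc1 4.28-fold higher and Col18a1, which yields endostatin, 3.33-fold lower. Of 12 tested fibroblast, meningeal and mural cell markers, 9 increased and 0 decreased in spinal cord differentiation (all tested genes: 20.9% and 22.6%). Of 8 tested laminin chains 4 increased there and 0 decreased. Between proliferative cultures 8 markers were higher in spinal cord and 1 in brain (all tested genes: 21.2% and 22.8%). For laminin chains the counts were 4 and 2. Between differentiated cultures 8 markers were higher in spinal cord and 1 in brain (all tested genes: 22.3% and 22.4%). For laminin chains the counts were 5 and 1. In brain differentiation, where Lamb1 fell, 4 of the 12 markers rose and 2 fell (all tested genes: 24.1% and 28.5%). Kcnj8, Rgs5 and Abcc9, markers of pericytes, were dim in all 4 groups. The part of such cells in the laminin differences was not tested.

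The alpha chains that make laminin receptors fell with differentiation in both tissues and were lower in spinal cord. Of 9 progenitor markers 2 fell and 5 rose in brain differentiation, and 6 fell and 1 rose in spinal cord differentiation. In the proliferative and differentiated states 4 and 7 of them were lower in spinal cord (all tested genes: 22.8% and 22.4%), and 1 and 0 higher. Of 12 neuron markers 7 fell and 2 rose in brain, and 6 fell and 0 rose in spinal cord. Over all tested genes 28.5% fell and 24.1% rose in brain differentiation, and 22.6% and 20.9% in spinal cord. The part of either set was not tested. Itga3 was 9.60, 9.41 and 10.30 on brain proliferative and 7.96, 7.49 and 8.32 on brain differentiated arrays, and 9.02, 8.59 and 8.12 before and 6.97, 7.08 and 7.07 after differentiation in spinal cord. It fell 3.59-fold in brain (adjusted p = 8.7e-05) and 2.90-fold in spinal cord (adjusted p = 0.000476), and neither pair of groups overlapped. It was 2.28-fold higher in brain in proliferative cultures (adjusted p = 0.00343) and 1.85-fold in differentiated ones (adjusted p = 0.0175), the latter call being lost without brain differentiated array 3 (log2 difference -0.69, adjusted p = 0.0876) or spinal cord differentiated array 1 (-0.85, adjusted p = 0.0523). Itga6, used to enrich neural stem cells, was 11.27, 11.48 and 11.75 on brain proliferative and 10.53, 10.85 and 10.69 on brain differentiated arrays. Spinal cord arrays read 11.04, 10.14 and 9.84 and then 9.18, 9.04 and 9.31. The falls of Itga6 were 1.76-fold in brain (adjusted p = 0.0112) and 2.25-fold in spinal cord (adjusted p = 0.00128), and brain exceeded spinal cord 2.23-fold and 2.86-fold (adjusted p = 0.00157 and 0.000142). Of its 4 probe sets, 2 were called down in each tissue. The dimmer 2 were not called, at 0.17 and 0.37 in brain and -0.57 and 0.16 in spinal cord.

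Itga7, the laminin receptor chain of muscle, was 9.41, 9.51 and 9.12 on brain proliferative and 7.85, 7.89 and 8.32 on brain differentiated arrays. Spinal cord arrays read 8.71, 7.84 and 7.75 before and 7.02, 6.91 and 6.82 after differentiation. Groups again did not overlap within a tissue, and the falls were 2.51-fold (adjusted p = 0.000398) and 2.28-fold (adjusted p = 0.00115). Both tested probe sets fell in both tissues. For Itga3, Itga6 and Itga7 the difference of responses was not called, with 95% intervals of -0.52 to 1.13, -1.07 to 0.36 and -0.57 to 0.85 on the log2 scale. Brain exceeded spinal cord for Itga7 by 2.37-fold and 2.15-fold (adjusted p = 0.000908 and 0.00172). Itga2b, the alpha chain of the platelet fibrinogen receptor, lay near the percentile at 6.66 to 7.12 on brain and 5.60 to 6.49 on spinal cord arrays. Its tissue differences of 1.72-fold and 1.68-fold (adjusted p = 0.0374 and 0.0421) were each lost on leaving out any of 7 arrays, with adjusted p up to 0.145. These were brain proliferative arrays 1 and 2 and brain differentiated arrays 2 and 3 for both, with brain proliferative array 3 and spinal cord proliferative arrays 1 and 2 for the former, and brain differentiated array 1 and spinal cord differentiated arrays 1 and 2 for the latter. The log2 differences over all leave-outs ran from -1.01 to -0.59 and from -0.85 to -0.58. Both calls were lost with no filter (adjusted p = 0.0719 and 0.0788), and the former with only the 2 groups compared (adjusted p = 0.0914). Of 3 platelet markers Gp9 and Ppbp were dim in all groups, while Pf4 was 6.74 to 7.74 on brain and 9.28 to 10.07 on spinal cord arrays.

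**Figure D3:**
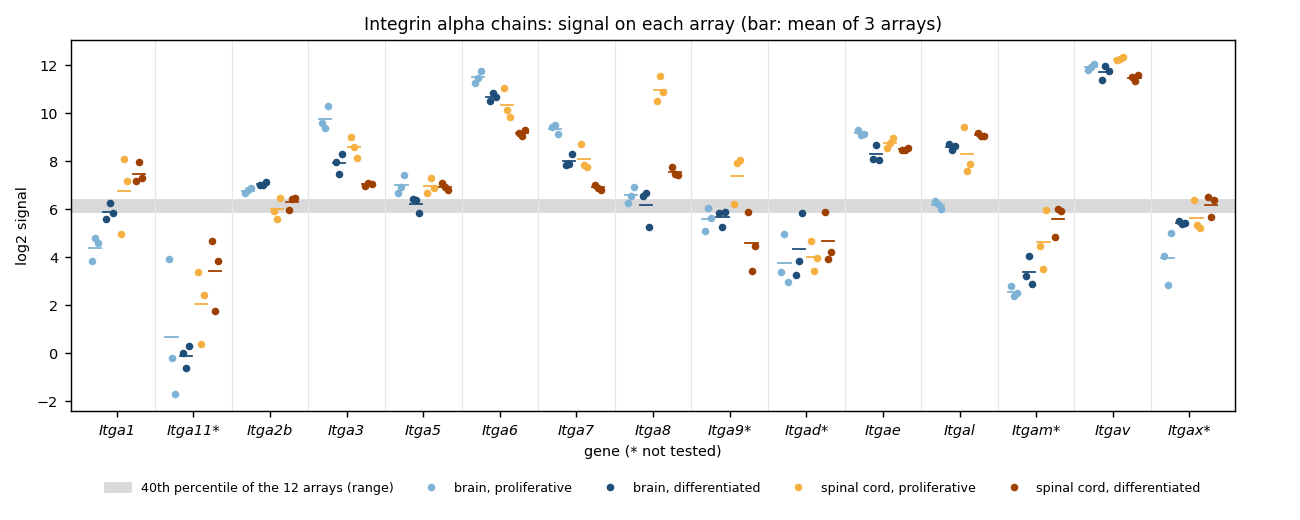
Log2 signal of the 15 integrin alpha chains on each array, coloured by group, with the mean of 3 arrays as a bar and the range of the 40th percentiles in grey. Itga3, Itga6 and Itga7 step down with differentiation in both tissues, Itga8 is at 10.53 to 11.55 only on spinal cord proliferative arrays, and genes with an asterisk were not tested.

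Itgb1, the partner of most alpha chains, was 13.16, 13.10 and 13.24 on brain proliferative, 12.86, 12.94 and 13.02 on brain differentiated, 12.99, 13.12 and 12.95 on spinal cord proliferative and 13.01, 12.92 and 13.02 on spinal cord differentiated arrays. All 12 arrays lay within 12.86 to 13.24. In brain it fell 1.17-fold (adjusted p = 0.0262), a call lost without brain proliferative array 1 or 3 or brain differentiated array 1 or 2 (log2 change -0.27 to -0.19 over all leave-outs, highest adjusted p = 0.0959), though its second probe set fell too (log2 change -0.34). It was also lost under quantile normalization (-0.16, adjusted p = 0.101), with no filter (adjusted p = 0.0593) and with no mean-variance trend (adjusted p = 0.0727). In spinal cord the log2 change was -0.03 with a 95% interval of -0.20 to 0.13. Itgb4, which pairs with alpha 6 and links laminin to keratin filaments in epithelia, rose in both tissues. It went from 8.70, 8.10 and 9.22 to 9.52, 9.43 and 9.67 in brain, 1.82-fold (adjusted p = 0.00779), and from 7.93, 8.03 and 7.47 to 10.67, 10.82 and 10.40 in spinal cord, 7.08-fold (adjusted p = 7.1e-07). The spinal cord response exceeded the brain response by 1.96 ± 0.33 on the log2 scale (SE, adjusted p = 0.00037). Itgb4 was 1.82-fold higher in brain in proliferative cultures (adjusted p = 0.01) and 2.13-fold higher in spinal cord in differentiated ones (adjusted p = 0.00192). The former was not called with only the 2 groups compared (adjusted p = 0.052).

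Of 23 other laminin receptors and their modifiers, 18 were measured and tested. In brain 8 rose and 4 fell with differentiation (all tested genes: 24.1% and 28.5%). Dmd, dystrophin, which ties the laminin receptor dystroglycan to actin, rose at least 4.14-fold and Bcam, a receptor for laminin alpha 5, at least 1.20-fold, whereas Sdc1, the proteoglycan syndecan 1, fell 6.09-fold. In spinal cord 4 rose and 3 fell (all tested genes: 20.9% and 22.6%), with Sdc2 2.08-fold higher, Sdc3 8.74-fold lower and Cd9, a tetraspanin that binds integrins, 2.60-fold lower. The median log2 changes were 0.22 and 0.20, against -0.06 and -0.04 over all tested genes.

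Receptors for Arg-Gly-Asp proteins differed chain by chain. Itga8, which pairs with beta 1 and binds nephronectin, was at 10.53, 11.55 and 10.88 on spinal cord proliferative arrays against 7.77, 7.48 and 7.45 on spinal cord differentiated ones. On brain arrays it was 6.26, 6.55 and 6.93 and then 6.55, 6.68 and 5.28, near the percentile. It fell 10.7-fold in spinal cord (adjusted p = 4.17e-06), and in brain the log2 change of -0.41 was not called (adjusted p = 0.356). The responses differed by -3.01 ± 0.49 on the log2 scale (SE, adjusted p = 0.000257). In the second probe set only 1 of 3 brain proliferative arrays was above its percentile, so no size is given for it. Proliferative spinal cord cultures exceeded proliferative brain cultures 21.2-fold (adjusted p = 4.38e-07) and differentiated ones 2.63-fold (adjusted p = 0.00494). The last difference was not called in the second probe set (log2 value 0.94, adjusted p = 0.281). In spinal cord differentiation, where Itga8 fell, 22.6% of all tested genes fell and 20.9% rose. There 6 of 7 Schwann cell, 6 of 9 progenitor, 6 of 12 neuron and 6 of 14 leukocyte markers fell. So did 5 of 11 oligodendrocyte lineage, 4 of 10 astrocyte and 3 of 5 endothelial markers. In the same contrast 9 of 12 markers of fibroblasts, meninges and mural cells, 5 of 10 astrocyte and 2 of 4 ependymal markers rose. So did 1 marker each of the Schwann cell, progenitor, leukocyte and oligodendrocyte lineage lists. The part of any of these cells in the fall of Itga8 was not tested.

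Itgav, the partner of several beta chains, was 11.79, 11.93 and 12.05 on brain proliferative and 11.38, 11.96 and 11.78 on brain differentiated arrays. On spinal cord arrays it was 12.23, 12.27 and 12.33 and then 11.52, 11.34 and 11.61, a 1.73-fold fall (adjusted p = 0.000307). The other probe sets of Itgav, at 9.46 to 9.93 on spinal cord arrays, did not show this fall: their log2 changes were -0.14 and 0.10, and neither was called. The difference of responses, -0.57 (adjusted p = 0.0235), was likewise -0.03 and 0.28 in the others and not called there. It was also lost on leaving out any of brain proliferative array 1, brain differentiated arrays 2 and 3, spinal cord proliferative array 3 and spinal cord differentiated array 2 (values from -0.74 to -0.45, adjusted p up to 0.0634), under median centring (-0.34, adjusted p = 0.221) and with no mean-variance trend (adjusted p = 0.0554). The 1.28-fold excess of spinal cord over brain in proliferative cultures (adjusted p = 0.0462) was lost without brain proliferative array 1 or 2, brain differentiated array 3, any spinal cord proliferative array, or spinal cord differentiated array 1 or 3 (log2 values 0.29 to 0.42, adjusted p up to 0.16). It was also lost under median centring (0.15, adjusted p = 0.462), with no filter (adjusted p = 0.0632) and with no mean-variance trend (adjusted p = 0.0924). Between differentiated cultures the probe sets of Itgav disagreed: -0.22 for the brightest (adjusted p = 0.203) against 0.37 and 0.53 for the others (adjusted p = 0.0372 and 0.00423).

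Itgb5, which pairs with alpha V in the vitronectin receptor, rose in both tissues. It went from 8.62, 8.60 and 8.75 to 9.99, 9.70 and 9.78 in brain, 2.24-fold (adjusted p = 5.47e-05), and from 8.73, 9.40 and 8.95 to 9.68, 10.01 and 9.74 in spinal cord, 1.72-fold (adjusted p = 0.0016). Neither pair of groups overlapped, and its second probe set rose in brain (log2 change 1.65) but was not called in spinal cord (0.66, adjusted p = 0.0945). Itgb3, the other main partner of alpha V, was dim in 3 of the 4 groups and was 6.59, 7.22 and 7.27 on spinal cord proliferative arrays. These exceeded proliferative brain cultures at least 1.89-fold. The fitted log2 difference was 2.89 (adjusted p = 0.00659), and it was 1.95 without brain proliferative array 1 and 3.56 without brain proliferative array 2. Itga5, the fibronectin receptor chain, went from 6.69, 6.93 and 7.45 to 6.44, 6.40 and 5.84 in brain, a 1.74-fold fall (adjusted p = 0.0306). That call was lost without brain proliferative array 2 or 3 or brain differentiated array 3 (log2 change -0.96 to -0.58, adjusted p up to 0.127), with no filter (adjusted p = 0.0555) and with only the 2 groups compared (adjusted p = 0.0503). In spinal cord Itga5 was 6.66, 7.32 and 6.88 before and 7.11, 6.93 and 6.81 after, a log2 change of -0.0027 with a 95% interval of -0.60 to 0.60. Itga1, a collagen receptor chain, was dim in brain, and in spinal cord it was 4.98, 8.09 and 7.18 before and 7.18, 7.98 and 7.31 after differentiation. Its excess in proliferative spinal cord cultures was at least 1.56-fold. The fitted log2 difference was 2.34 (adjusted p = 0.00825), and it was 3.23 without spinal cord proliferative array 1 and 1.67 without array 2. Between differentiated cultures, where brain arrays read 5.62 to 6.25, the excess of Itga1 was not called. It was called under median centring, a pseudocount of 64, a replicate block and only the 2 groups compared (adjusted p = 0.0476, 0.0254, 0.018 and 0.0013). Leaving out spinal cord proliferative array 1 or 2 also gave a call (adjusted p = 0.00385 and 0.0274). Itga9, a receptor chain for tenascin C, was not tested, with 6.20, 7.95 and 8.04 on spinal cord proliferative arrays and dim values in the other groups.

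Of 33 other integrin ligands 23 were tested. Between proliferative cultures 13 were higher in spinal cord and 4 in brain, and between differentiated cultures 12 and 6, with median log2 differences of 0.71 and 1.12. Over all tested genes these shares were 21.2% and 22.8%, then 22.3% and 22.4%, with medians of -0.04 and -0.0038. Col3a1, a fibrillar collagen, was 59.1-fold higher in proliferative and Col1a1 149-fold higher in differentiated spinal cord cultures. With differentiation 9 rose and 5 fell in spinal cord (all tested genes: 20.9% and 22.6%), where Cdh1, the epithelial cadherin that alpha E beta 7 binds, rose at least 16.6-fold and Spp1, osteopontin, fell 3.06-fold. In brain 7 rose and 3 fell (all tested genes: 24.1% and 28.5%), with Jam2, a junctional adhesion molecule, 4.89-fold higher and Ltbp1, which tethers latent TGF-beta, 3.81-fold lower. Col1a1, Col1a2, Col3a1 and Thy1 also stand in the list of fibroblast markers.

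Leukocyte integrin chains were measured in both tissues. Itgal, the alpha chain of the lymphocyte receptor for intercellular adhesion molecules, was 6.35, 6.23 and 6.01 on brain proliferative and 8.73, 8.45 and 8.63 on brain differentiated arrays. In spinal cord it was 9.43, 7.60 and 7.89 and then 9.17, 9.07 and 9.04. It rose 5.31-fold in brain (adjusted p = 6.68e-05), the largest fitted rise among the members there. Its partner Itgb2 went from 5.89, 5.83 and 6.65 to 7.90, 7.88 and 7.94 in brain, 3.43-fold (adjusted p = 0.000231), and from 8.75, 7.52 and 7.68 to 8.97, 9.16 and 9.31 in spinal cord, 2.24-fold (adjusted p = 0.00614). Of the brain proliferative arrays only 1 was above its percentile for Itgb2. For Itgal these arrays lay close to their percentiles of 6.19, 6.23 and 5.91. The sizes of folds and response differences that use that group are therefore uncertain for both genes. Spinal cord proliferative array 1 was the highest of its group for both genes. Without it the rise of Itgal in spinal cord was called (log2 change 1.35, adjusted p = 4.07e-05), whereas over all arrays it was not (0.79, adjusted p = 0.0838). The responses of Itgal differed by -1.62 ± 0.48 on the log2 scale (SE, adjusted p = 0.0159), and by -1.06 without that array (adjusted p = 0.0023). Proliferative spinal cord cultures exceeded brain cultures 4.31-fold for Itgal and 3.63-fold for Itgb2 (adjusted p = 0.000303 and 0.000242), and in differentiated cultures the excess was 2.37-fold for Itgb2 (adjusted p = 0.00379) and not called for Itgal.

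Markers of leukocytes and microglia did not move with these chains in every contrast. In brain differentiation 8 of 14 tested markers rose and 1 fell (all tested genes: 24.1% and 28.5%). Between proliferative cultures 14 of 14 were higher in spinal cord (all tested genes: 21.2%). In spinal cord differentiation, where Itgb2 rose, 1 marker rose (Tmem119) and 6 fell (all tested genes: 20.9% and 22.6%), with a median log2 change of -0.34. Among the falls were C1qa, C1qb and C1qc, the chains of complement C1q. Ptprc, the leukocyte common antigen CD45, was 4.28 to 5.01 on brain proliferative, 6.12 to 6.90 on brain differentiated, 6.37 to 8.41 on spinal cord proliferative and 7.03 to 7.79 on spinal cord differentiated arrays. Of the 17 measured markers 10 were dim in brain proliferative, 3 in brain differentiated, 3 in spinal cord proliferative and 4 in spinal cord differentiated cultures. Cx3cr1, P2ry12 and Trem2, which mark microglia, were dim in all 4 groups, as were Itgam, Itgad and 5 of 6 measured lymphocyte markers. Other markers of microglia were not: on spinal cord differentiated arrays Tmem119 was 9.61 to 9.85 and Aif1 8.84 to 9.02. The part of leukocytes in the levels of Itgal and Itgb2 was not tested. Itgae, a chain of lymphocytes that lodge in epithelia, was 9.29, 9.10 and 9.16 on brain proliferative and 8.12, 8.69 and 8.08 on brain differentiated arrays, a 1.85-fold fall (adjusted p = 0.000721), although its known partner Itgb7 was dim in all groups. In spinal cord Itgae was 8.56, 8.74 and 8.98 before and 8.47, 8.49 and 8.57 after. The difference of its responses, 0.63 (adjusted p = 0.0484), was lost in 10 of 12 leave-outs, the exceptions being brain differentiated array 2 and spinal cord proliferative array 3 (values 0.52 to 0.83, adjusted p up to 0.122), with a replicate block (adjusted p = 0.0662), with no filter (adjusted p = 0.0643) and with no mean-variance trend (adjusted p = 0.0599).

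**Figure D4:**
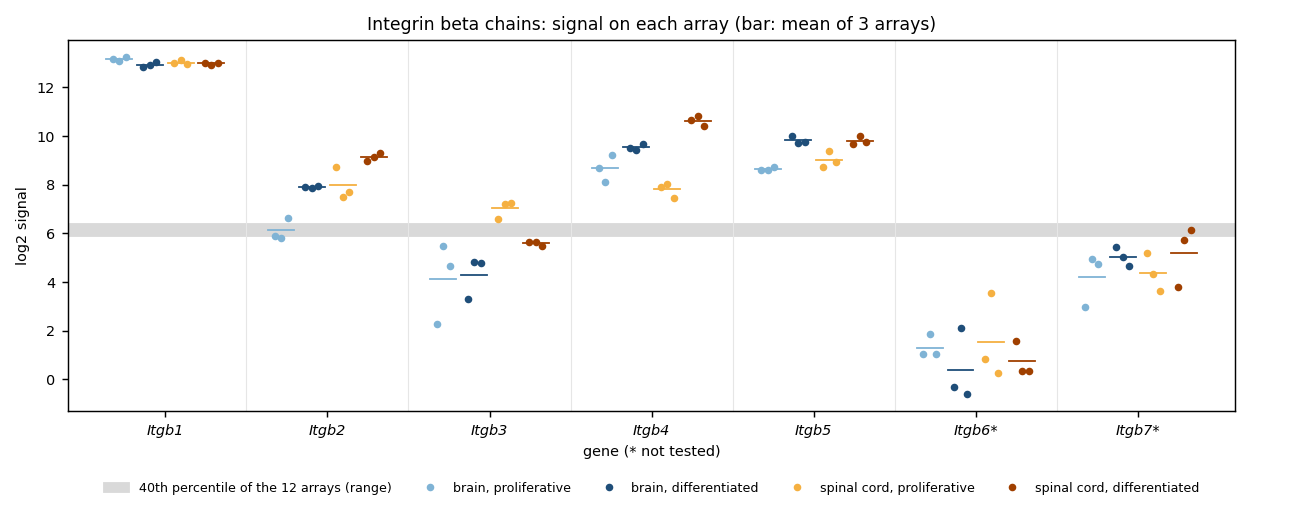
Log2 signal of the 7 integrin beta chains on each array, coloured by group, with the mean of 3 arrays as a bar and the range of the 40th percentiles in grey. Itgb1 stays between 12.86 and 13.24 on all arrays, Itgb4 reaches 10.40 to 10.82 on spinal cord differentiated arrays, and Itgb2 is lowest on brain proliferative arrays.

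Inside the cell, 32 of 36 listed focal adhesion adaptors and kinases were tested. In brain differentiation 7 rose and 13 fell, with a median log2 change of -0.27 (all tested genes: 24.1% and 28.5%, median -0.06). Tns3, tensin 3, rose 5.69-fold there, while Actn1, the actin crosslinker alpha-actinin 1, fell 2.85-fold and Lims1, the adaptor PINCH1, 2.72-fold. In spinal cord 11 rose and 7 fell, with a median of 0.07 (all tested genes: 20.9% and 22.6%, median -0.04). Parva, alpha-parvin, rose 3.30-fold and Vcl, vinculin, 3.09-fold, while the kinase Src fell 2.46-fold and Cav1, caveolin 1, 2.09-fold. The responses differed for 23 of the 32, 15 of them with the larger value in spinal cord, against 23.7% and 21.2% of all tested genes in each direction. Between proliferative cultures 7 were higher in spinal cord and 15 in brain (all tested genes: 21.2% and 22.8%), with Apbb1ip, which links Rap1 to talin, 7.08-fold higher in spinal cord and Parvb, beta-parvin, 5.34-fold higher in brain.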

How the data were processed

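RNA of 12 cultures or extracts (4 groups of 3) was hybridised to Rat230_2 arrays. The deposited values are log2 signals; per the submitters' processing notes MAS5 and the affy package were used, with no version given. On the linear scale the deposited log2 values have a trimmed mean of 500 per array (2% trimmed at each end), as checked on the values. Depth has no counterpart on arrays: the number of arrays limits the precision.

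Of 31099 probe sets 57 controls were left out. Platform annotation gave 1 symbol for 20826 probe sets, several for 436 and none for 9780. Testing needed a signal above an array's own 40th percentile on 3 or more arrays (20834 probe sets). limma 3.58.1 in R 4.3.3 fitted 1 mean per group (lmFit, eBayes with trend, 8 residual degrees of freedom), with Benjamini-Hochberg adjustment over all tested probe sets and a threshold of 0.05. Intervals are 95% intervals. Tested on simulated data for brain differentiation (20834 probe sets, 200 changed), the fit recovered 78% of changes of 2 and 57% of changes of 1 on the log2 scale. It also called 11 unchanged probe sets. The data gave 9763 calls in that contrast, so the p-value that passes the adjustment differs and these rates do not carry over. Groups were taken from sample titles. Title numbers were not used as a block: over 18 same-number pairs the deviations from the group means correlated at -0.12 to 0.05.

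All members were accounted for, and array values are given for the members of largest change and their partners. For each pathway list, folds are given for at most 2 rises and 2 falls per contrast. These are large changes but not always the largest of the list. Members and lists were chosen with earlier results of these data known. Alternatives were 2 scalings, 2 filters, a pseudocount of 64, no trend, a replicate block, the second probe set, only the groups compared, and leaving out each array.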

Additional observations from a re-analysis of the deposited data

Results flagged for a closer look

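The response to differentiation differed between spinal cord and brain for 8 members by the test of the difference itself (limma, adjusted over all 20834 tested probe sets), where 44.9% of all tested genes differed. The value is the spinal cord response minus the brain response on the log2 scale. Among laminins it was 3.05 for Lamb1, 1.28 for Lamc1 and 0.92 for Lama5. Lamb1 was called down in brain and up in spinal cord, and the former call was lost in 3 leave-outs and with a pseudocount of 64 (-0.78, adjusted p = 0.0502). Among integrins it was 1.96 for Itgb4, which rose in both tissues, and -3.01 for Itga8, which fell in spinal cord. It was -1.62 for Itgal, which rose in brain, 0.63 for Itgae, which fell in brain, and -0.57 for Itgav, which fell in spinal cord in its brightest probe set; under median centring the last was -0.34 and not called (adjusted p = 0.221). In spinal cord differentiation 9 of 12 tested fibroblast, meningeal and mural cell markers increased (all tested genes: 20.9%), as did Lamb1 and Lamc1. Lama5 was not called there. The part of such cells was not tested.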

How the results depend on the processing

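Over 63 called gene results and 1268 alternative values, 1176 kept direction and call and 92 kept direction but lost the call, in 16 of the results. A gene that a setting did not test gave no value there, so it counts as neither kept nor lost. Under the stricter filter 8 members were higher and 6 lower in proliferative spinal cord cultures, in place of 10 and 7. In differentiated cultures these counts were 7 and 4 in place of 8 and 5. Of 52 results not called, 58 alternative values were called in the same direction, 39 changed sign while not called either way, and 1 turned with a call: Itgav between differentiated cultures was 0.37 in its second probe set. With only the 2 groups compared, 4 members were lower in proliferative spinal cord cultures in place of 7. That setting gives no value for the difference of responses, which needs all groups. Leaving out 1 array gave 3 to 7 members with the larger response in spinal cord and 3 to 5 members lower in differentiated spinal cord cultures.

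The replicate block gave 9415, 7971, 7531, 8196 and 8072 called probe sets in the 5 contrasts against 9763, 8396, 7877, 8617 and 8434, and ended 2 member calls: Lamb2 between proliferative cultures (adjusted p = 0.0596) and the difference of responses of Itgae (0.0662). No array of 12 correlated best with its own number, so no deviation shared by number was seen. This check cannot tell whether arrays of the same number share a preparation, which the labels do not state. Median centring moved the median of all tested probe sets from 0.0038 to -0.15 in brain differentiation, from -0.02 to -0.22 between proliferative cultures and from -0.04 to 0.19 for the difference of responses. The share of rises among calls went from 50.6% to 38.2%, from 51.2% to 31.7% and from 46.4% to 61.3%.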
